A study of Rattus norvegicus with 24 samples.

Results

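Calca, Calcb and Adm, 3 genes of the calcitonin gene-related peptide (CGRP) and adrenomedullin family, were followed in the whole hippocampus of individual rats, out of 32883 genes in the count table. The members were chosen by name, on their family and their place on chromosome 1, from a study whose differences between the lines were already known. The bLR vs. bHR values below are therefore a description and carry no test. All 3 genes were found in the table and all 3 passed the filter on low values, with 13838 genes in all (at least 1 CPM, a read count scaled to the size of its library, in at least 6 of 23 rats).

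The rats came from the bred High Responder (bHR) and bred Low Responder (bLR) lines, bred by selection for strong or weak locomotion in a new environment and given behavioral tests but no drug as labelled. The 4 subgroups were 6 bHR males, 6 bHR females, 6 bLR males and 6 bLR females, with 1 male and 1 female labelled from each of 12 families. The protocol text instead describes every rat as coming from a family of its own, so rats that share a family code may not be siblings. The bHR female with RNA of low integrity was left out, leaving 23 rats. Each line is 1 bred population, so a difference between lines is one between these populations. Males were labelled 151 to 165 days old and females 188 to 192 days, and the sexes were dissected on separate days, so sex, age as labelled and day cannot be told apart. The protocol text gives younger ages for the study's rats than these labels. Libraries held 16824899 to 28443049 counts. Because the tissue was whole hippocampus, fewer cells of a type and less RNA per cell cannot be told apart. Of 58 markers fixed for 11 cell types, 10 could be matched by name and none of those for hippocampal pyramidal and granule neurons, so the tissue was checked only by Slc17a7, the vesicular glutamate transporter of cortical and hippocampal neurons, added after the data were seen, which held 160 to 1094 CPM.

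Calca encodes 2 peptides by alternative splicing, calcitonin in thyroid C cells and alpha-CGRP in neurons, and Calcb encodes the closely related beta-CGRP. Adm encodes adrenomedullin, a vasodilator peptide whose transcript is induced by low oxygen. CGRP and adrenomedullin signal through the calcitonin receptor-like receptor paired with a receptor activity-modifying protein, while calcitonin acts through the calcitonin receptor, and these receptors raise cyclic AMP. In the rat hippocampus CGRP is known from mossy cells of the dentate hilus, and CGRP is best known from sensory neurons, where its release dilates vessels. The counts are per gene, so the calcitonin and CGRP transcripts of Calca were not separated, and levels are compared between rats, never between genes.

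The genes lie on chromosome 1 of Rnor6. Calca (ENSRNOG00000011130) spans 184184020 to 184188911 on the reverse strand and Calcb (ENSRNOG00000011074) spans 184271590 to 184276475 on the forward strand, with 82.7 kb between their starts. Adm (ENSRNOG00000027030) spans 175445088 to 175447259 on the forward strand, 8744 kb from the start of Calca. The 150 bases before the RefSeq start sites of Calca and Adm are shown because these 2 members differed between the lines in opposite directions. They are from the GRCr8 build, at chr1:178317530-178317679 on the reverse strand for Calca and chr1:174180050-174180199 on the forward strand for Adm, and capitals mark the motifs found.
Calca: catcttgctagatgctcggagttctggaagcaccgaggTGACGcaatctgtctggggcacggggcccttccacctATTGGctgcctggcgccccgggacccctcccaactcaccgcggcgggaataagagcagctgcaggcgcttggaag
Adm: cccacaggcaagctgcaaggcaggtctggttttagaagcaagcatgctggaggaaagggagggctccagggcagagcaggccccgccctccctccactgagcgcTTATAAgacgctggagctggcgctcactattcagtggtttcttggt
The motifs were searched on both strands. The Calca window held 1 cyclic AMP response core (TGACG), starting 112 bases before the start, which 13.4% of 33469 promoter windows of this length hold. It also held 1 CCAAT box on the reverse strand, starting 75 bases before the start, a motif in 23.5% of windows. The Adm window held a TATA box (TATAA) on both strands in 1 overlapping stretch, starting 46 and 45 bases before the start, a motif in 15.2% of windows. Neither window held the hypoxia response core ACGTG or GCGTG, which 10.8% and 18.8% of windows hold. ACGTG and TGACG can overlap. Calcb had no entry in the promoter table used here.

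Calca was higher on average in bLRs than in bHRs, with a wide spread within each subgroup. In bHR males it held 1.27 CPM in the lowest rat, a median of 2.54 CPM and 5.85 CPM in the highest. The 5 bHR females held 2.10, 2.22, 3.10, 5.33 and 6.26 CPM. In bLR males the lowest was 1.70 CPM, the median 6.33 CPM and the highest 10.2 CPM. In bLR females these values were 2.62, 6.28 and 9.41 CPM. The lines overlapped, but 6 of 12 bLRs lay above the highest bHR, and 0 of 11 bHRs lay above the median bLR of 6.29 CPM. The 2 lowest bLR males, of families L01 and L03, lay in the lower part of the bHR range.

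Mean Calca was 3.31 ± 1.71 CPM in bHRs (SD, n = 11) and 5.96 ± 2.90 CPM in bLRs (SD, n = 12), a ratio of 1.80. With sex, %rRNA and %intergenic (the shares of ribosomal and intergenic bases in a library) as covariates, the Log2FC of bLRs vs. bHRs was 1.00 ± 0.19 (SE). A lower Log2FC was found in 99.7% of the genes tested. The values rest on 35 to 206 reads per rat. Within subgroups the coefficient of variation of Calca was 44.2 to 57.8%, against a counting error of 8.62 to 12.7% at the median number of reads, so counting made up a small part of this spread.

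Calcb differed less between the lines than its spread within them. Its range was 1.06 to 1.32 CPM in bHR males with a median of 1.19 CPM, and 1.08 to 1.93 CPM in bLR males with a median of 1.34 CPM. The 5 bHR females held 0.759, 0.866, 0.873, 0.874 and 1.42 CPM. In bLR females the lowest was 0.812 CPM, the median 0.868 CPM and the highest 1.65 CPM. Over both sexes 6 of 12 bLRs lay above the median bHR and 6 of 11 bHRs above the median bLR. In males, 3 of 6 bLRs lay above the highest bHR, 4 of 6 above the median bHR and 0 of 6 bHRs above the median bLR. In females, 1 of 6 bLRs lay above the highest bHR and 2 of 6 above the median bHR. The Log2FC of bLRs vs. bHRs was 0.26 ± 0.15 (SE), on means of 1.21 ± 0.366 CPM (SD, n = 12) and 1.09 ± 0.217 CPM (SD, n = 11), and 92.3% of the genes tested had a lower one. With the low-integrity rat included, which held 1.66 CPM, more than any other bHR, the Log2FC was 0.089, and with RIN and RNA concentration added as covariates it was 0.15. Calcb rests on only 12 to 41 reads per rat, and its coefficient of variation within subgroups, 8.15 to 31.9%, was of the order of the counting error of 18.4 to 20.2%.

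Adm was lower on average in bLRs, in both sexes. In bHR males it held 1.50 CPM in the lowest rat, a median of 2.09 CPM and 2.59 CPM in the highest. The 5 bHR females held 1.21, 1.36, 1.59, 2.15 and 2.44 CPM. In bLR males the lowest was 0.690 CPM, the median 1.42 CPM and the highest 1.98 CPM. In bLR females these values were 0.694, 1.01 and 1.69 CPM. The lines overlapped, but 7 of 12 bLRs lay below the lowest bHR and 11 of 11 bHRs lay above the median bLR of 1.11 CPM.

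Mean Adm was 1.90 ± 0.468 CPM in bHRs (SD, n = 11) and 1.20 ± 0.429 CPM in bLRs (SD, n = 12). The Log2FC of bLRs vs. bHRs was -0.52 ± 0.18 (SE), and 1.02% of the genes tested had a lower one. Adm rests on 12 to 61 reads per rat. Its coefficient of variation within subgroups was 20.9 to 36.2%, against a counting error of 15.1 to 20.4%.

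**Figure D1:**
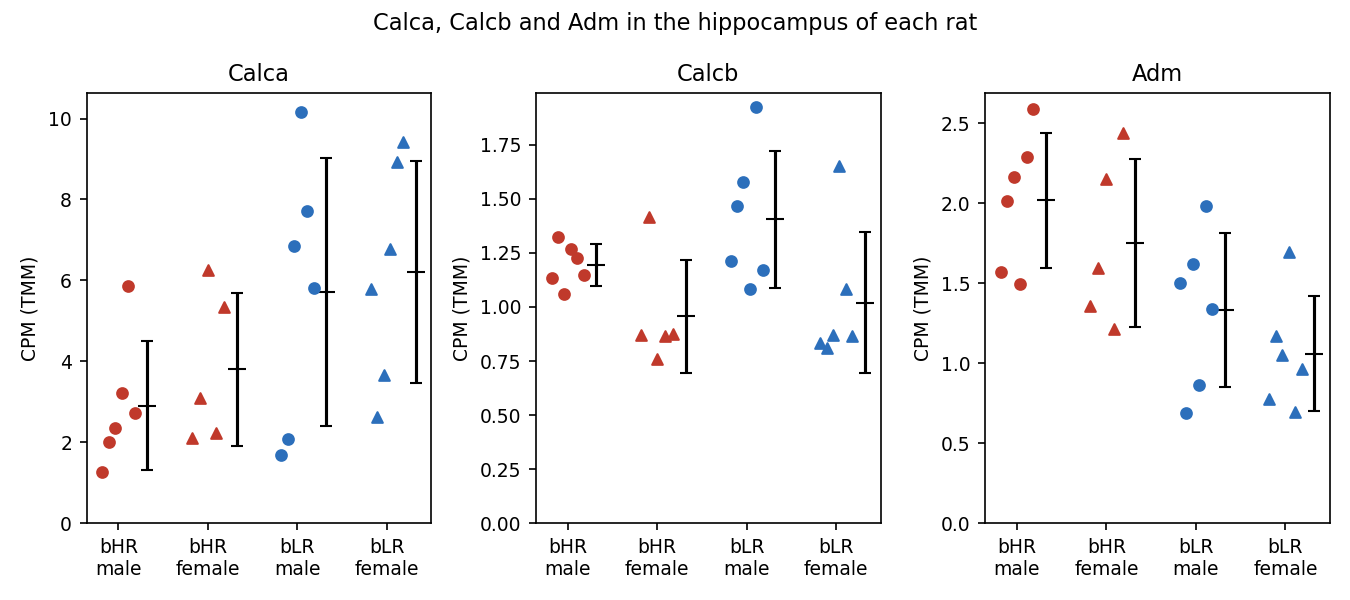
CPM of Calca, Calcb and Adm in each of 23 rats, by line and sex (red bHR, blue bLR, circles males, triangles females). Black bars are the mean and SD of each subgroup. Calca reaches 10.2 CPM in bLRs against 6.26 CPM in bHRs, Calcb overlaps between lines, and Adm reaches 2.59 CPM in bHRs against 1.98 CPM in bLRs.

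The order of subgroup means differed for each gene. For Calca it was bLR females (6.20 ± 2.74 CPM), bLR males (5.72 ± 3.30), bHR females (3.80 ± 1.89) and bHR males (2.90 ± 1.59; SD, n = 6, 6, 5 and 6). Each of these neighbours differed by about 1 SD or less. For Calcb both male subgroups (1.41 ± 0.317 CPM in bLRs, 1.19 ± 0.0974 in bHRs) stood above both female subgroups (1.02 ± 0.325 in bLRs, 0.957 ± 0.261 in bHRs). For Adm both bHR subgroups (2.02 ± 0.422 CPM in males, 1.75 ± 0.525 in females) stood above both bLR subgroups (1.33 ± 0.482 in males, 1.06 ± 0.357 in females). Adm neighbours also differed by about 1 SD or less. The Calcb mean of bHR males differed from those of bLR males and bLR females by less than the SD of the bLR subgroups, but by more than its own small SD.

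Across the table, 185 of 13838 genes (1.34%) passed FDR < 0.10 by lineage, and 1 of the 3 members, Calca, was among them. Calca was not among the genes passing without technical covariates, with %rRNA as the only one, or in rats of 1 sex alone. Since the members were chosen with this contrast known, nothing is read from that count. For 0 of the 3 members did the lines separate fully, over both sexes (0.0361% of genes did), in males (0.448%) or in females (0.419%).

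With only rats of 1 sex and %rRNA as covariate, the Log2FC of Calca was 0.83 ± 0.40 in males and 0.65 ± 0.24 in females (SE). For Calcb it was 0.27 ± 0.20 in males and 0.090 ± 0.27 in females, and for Adm -0.57 ± 0.27 in males and -0.70 ± 0.29 in females. In each sex Calca was higher and Adm lower in bLRs. Without technical covariates the Log2FC of Calca was 0.85, that of Calcb 0.17 and that of Adm -0.65. Calca and Calcb were counted in the same libraries, so the ratio of their reads does not depend on how libraries are scaled. It still carries the counting error of Calcb, with 12 to 41 reads per rat, and the relations of both genes to RNA metrics. This ratio had a median of 2.41 in bHRs (range 1.12 to 8.25) and 4.28 in bLRs (range 1.40 to 10.9).

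**Figure D2:**
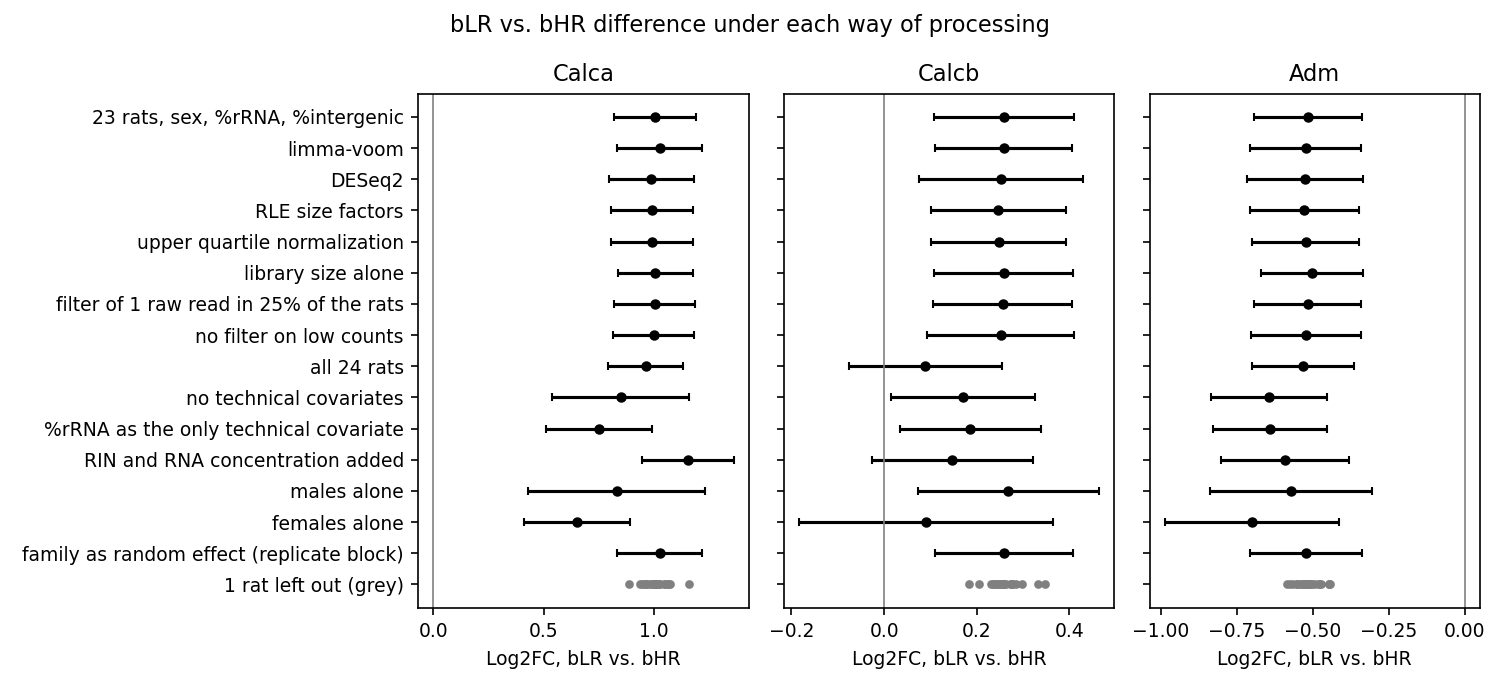
Log2FC (bLR vs. bHR) of each gene, with its SE, under each way of processing, and after dropping single rats in turn (grey points, 23 fits). Calca stays above 0 in every setting drawn and Adm below 0, while the SE of Calcb reaches 0 when all 24 rats are used, when RIN and RNA concentration are added and in females alone.

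None of the 3 genes passed the test for a difference between the sexes, which is also one of age and day of dissection. In edgeR's quasi-likelihood test the Log2FC of females vs. males was 0.49 ± 0.18 (SE) for Calca (FDR = 0.332), -0.44 ± 0.15 for Calcb (FDR = 0.299) and -0.29 ± 0.18 for Adm (FDR = 0.541). Of 13838 genes, 49 (0.354%) passed FDR < 0.10, against 0 of the members. At an unadjusted p under 0.05 in edgeR stood 1553 genes (11.2%) and 2 of the members. Their unadjusted edgeR p-values were 0.0108 for Calca and 0.00684 for Calcb.

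Within labelled family codes, where 1 male and 1 female could be compared in 11, the direction was not uniform. Whether such pairs were siblings is not settled, as above. Calca was higher in the female in 8 of 11 families, with a median log2 difference of 0.60 and a range from -1.36 in family H11 to 1.72 in family L01. Calcb was lower in the female in 9 of 11, with a median of -0.46, the exceptions being families H04 and L07. Adm was lower in the female in 8 of 11, with a median of -0.32. With family as a replicate block the log2 difference was 0.63 for Calca (FDR = 0.346), -0.48 for Calcb (FDR = 0.491) and -0.25 for Adm (FDR = 0.788) in edgeR, and 19 of 13804 genes were called in 22 rats, where the fit without the block called 49 in 23 rats. Without technical covariates the Log2FC of Calca was 0.24.

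Markers of red blood cells differed with sex: all 3 matched of 5 (Hba-a2, Hbb and Alas2, for globin chains and haem synthesis) were lower in females, with Log2FCs of -2.13, -2.02 and -2.02 (FDR = 8.6e-04, 0.00273 and 4.1e-04, edgeR). Their summed level was 520 to 3822 CPM in males and 37.9 to 890 CPM in females, and none was at 0 in any rat. After subtracting subgroup means, their r with Calca over 23 rats was 0.52 to 0.73. Among the other matched markers r with Calca ran both ways. It was -0.78 for Slc17a7 and -0.66 for the smooth muscle marker Acta2. The 2 thalamus markers had r of -0.55 (Slc17a6) and 0.031 (Tcf7l2). It was 0.91 for the interneuron marker Vip, 0.47 for the meningeal marker Igf2 and 0.27 for the choroid plexus marker Folr1. None of these 7 passed by lineage or by sex. High values of r were common, as r with Calca was above 0.8 for 15.6% of other genes and below -0.8 for 10.8%. The part of these markers in the values of the members was not tested. Gene names came in part from the study's own results by sex, so which markers could be matched may depend on those results.

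The difference between lines did not detectably depend on sex. The interaction term (the Log2FC between lines in females minus that in males) was -0.16 ± 0.48 for Calca, -0.15 ± 0.31 for Calcb and -0.10 ± 0.38 for Adm (SE), each with FDR = 1.00 in edgeR's test. These errors leave room for interactions of either sign. With %intergenic added to this model the terms for Calca and Adm changed sign, to 0.17 and 0.010. Over all 13838 genes, 0 (0.0%) passed FDR < 0.10 in edgeR, limma-voom and DESeq2 alike, and 325 (2.35%) had an unadjusted p under 0.05 in edgeR, of which 0 were members.

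Within subgroups, Calca followed the RNA metrics of the libraries. After subtracting subgroup means over 23 rats, log2 CPM of Calca rose with %rRNA (r = 0.66, rho = 0.66, adjusted permutation p = 0.00816) and fell with RNA concentration (r = -0.59, rho = -0.66, adjusted permutation p = 0.00816). It also rose with RIN, the RNA integrity number (r = 0.64, rho = 0.51, adjusted permutation p = 0.0237), and fell with %intergenic (r = -0.57, rho = -0.44, adjusted permutation p = 0.0237). The unadjusted p-values were 0.00136, 0.00076, 0.00790 and 0.00751, with 12 relations tested and an adjusted p under 0.10 as threshold. Without the 2 rats farthest from the median metric, r was 0.58 for %rRNA, -0.69 for RNA concentration, 0.34 for RIN and -0.34 for %intergenic, so the last 2 rest in good part on those rats. The rank relation to %intergenic did not pass (adjusted permutation p = 0.146), and r was -0.0032 in bLR females. The relation to RIN no longer passed with all 24 rats (r = 0.31, adjusted permutation p = 0.25).

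Calcb and Adm followed 1 metric of the 4. With 23 rats log2 CPM fell with %intergenic for Calcb (r = -0.39, rho = -0.15, unadjusted p = 0.0401, adjusted permutation p = 0.0802) and for Adm (r = -0.44, rho = -0.57, unadjusted p = 0.0335, adjusted permutation p = 0.0802). Without the 2 farthest rats these were -0.50 and -0.66. The rank relation of Calcb did not pass (adjusted permutation p = 0.815), and with all 24 rats its r was 0.017 (adjusted permutation p = 0.946). Neither gene's relation passed when levels were scaled by library size alone, with r = -0.0041 for Calcb and r = -0.17 for Adm. The same scaling gave r = -0.77 for Calcb and r = -0.56 for Adm with %rRNA (adjusted permutation p = 0.00372 and 0.0368), against -0.28 and -0.025 with TMM scaling.

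The mean metrics also differed between the lines, each by less than its SD in bLRs, and RIN by more than its SD in bHRs. %rRNA was 2.25 ± 0.690 in bHRs and 2.41 ± 0.849 in bLRs, %intergenic 9.83 ± 1.35 and 10.7 ± 1.09, and RIN 9.59 ± 0.164 and 9.33 ± 0.365 (SD, n = 11 and 12). RNA concentration, as labelled, was 57.1 ± 32.6 in bHRs and 47.1 ± 30.1 in bLRs. With %rRNA as the only technical covariate the Log2FC of Calca was 0.75, and with RIN and RNA concentration added to %rRNA and %intergenic it was 1.15. The Log2FC of Adm in these fits was -0.64 and -0.59.

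**Figure D3:**
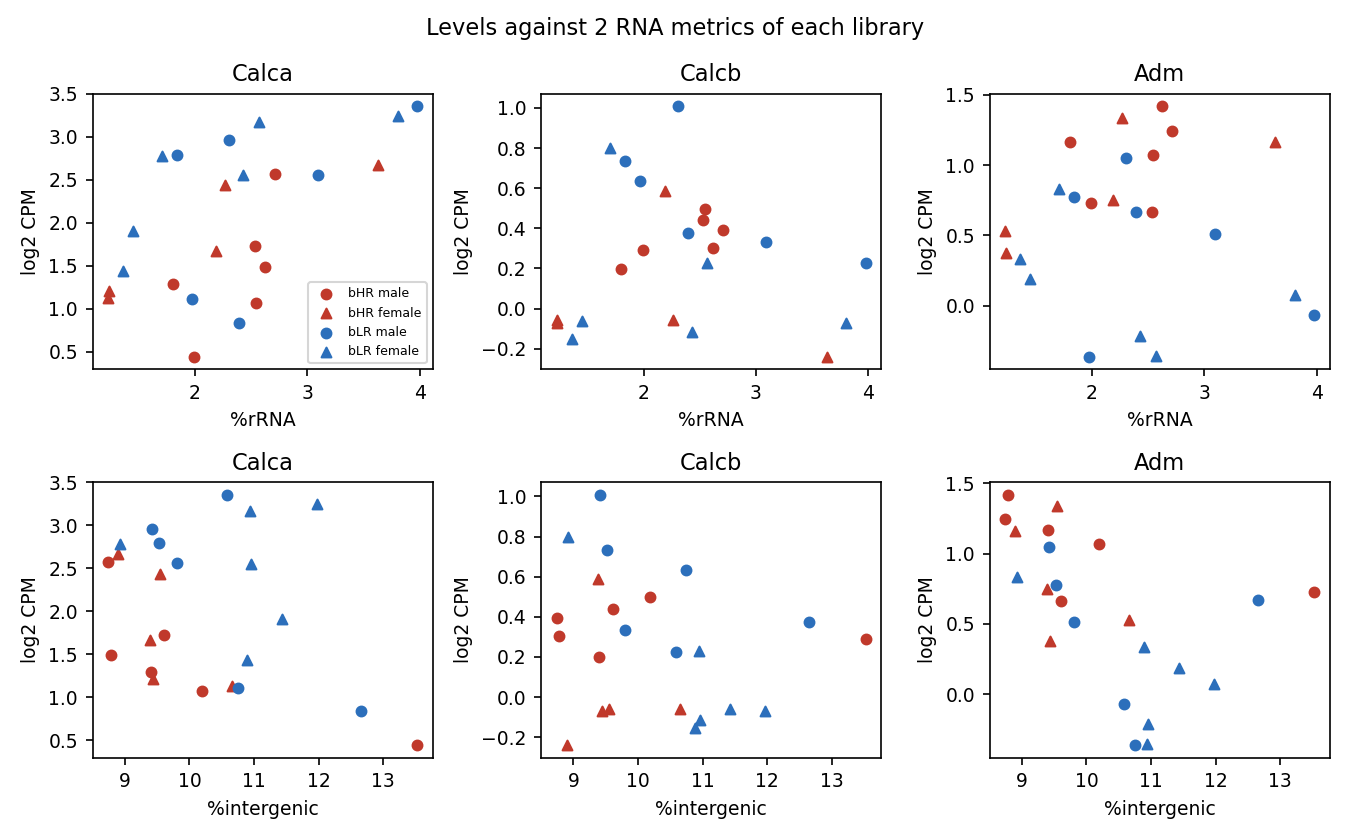
Log2 CPM of each gene in 23 rats against %rRNA (top) and %intergenic (bottom) of the same library, by line and sex. Calca is higher where %rRNA is higher (r = 0.66 within subgroups). Adm is lower where %intergenic is higher (r = -0.44 within subgroups).

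The members did not follow each other closely. After subtracting subgroup means, r over 23 rats was 0.12 between Calca and Calcb, 0.27 between Calca and Adm and 0.29 between Calcb and Adm. Scaled by library size alone these were -0.35, -0.22 and 0.45, so the sign of both relations of Calca depended on the scaling.

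Calca was part of a broad pattern shared by many genes. Its r was above 0.8 with 2152 of 13835 other genes (15.6%) and below -0.8 with 1495 (10.8%), while Calcb and Adm reached these values with 0 genes. Scaled by library size alone, Calca had 44 genes above 0.8 and 99 below -0.8, and Calcb had 125 above and 1 below. The 5 genes most like Calca had r of 0.93 to 0.94, those most like Calcb 0.67 to 0.75 and those most like Adm 0.68 to 0.76, and of these 15 only Tfb1m, a mitochondrial ribosomal RNA methyltransferase like Adm with r = 0.68, could be matched to a symbol. Among genes with a symbol, picked after their values were seen, those most like Calca included Ap2s1, a subunit of the clathrin adaptor (r = 0.91), and Vip, a peptide of interneurons (r = 0.91), whose Log2FCs between lines were 0.12 and -0.068. The points share libraries and their scaling.

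Gal, which encodes galanin, was the 1 matched of 4 mossy cell markers. It was lower in bLRs, with a Log2FC of -0.93 ± 0.21 (FDR = 0.0238, edgeR), on 0.743 to 2.67 CPM in bHRs and 0.477 to 1.15 CPM in bLRs. Its r within subgroups was 0.022 with Calca and 0.082 with Adm. No other matched marker passed by lineage.

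No relation of the 3 genes to behavior within a line passed correction. Relations were computed in bHRs and in bLRs apart, with sex means subtracted, giving 27 relations. Novelty-induced locomotion (LocoScore, lateral and rearing beam breaks) ran from 1533 to 2949 counts in bHRs and from 23 to 101 in bLRs. The lines are therefore separate clusters on LocoScore, while their ranges overlapped on the measures of the elevated plus maze. The 6 relations of LocoScore had r between -0.37 and 0.39, with a smallest unadjusted permutation p of 0.219 (adjusted 0.591). Of the 27 relations 2 had an unadjusted permutation p under 0.05, and the smallest adjusted p was 0.384.

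The relation with the smallest p was that of Calca to time immobile on the elevated plus maze (EPM), a maze of open and walled arms, in bHRs. Calca was higher in bHRs that were immobile longer (r = 0.74, rho = 0.66, unadjusted permutation p = 0.0142, adjusted 0.384). It was 0.50 in males and 0.96 in females, and 0.53 without the 2 rats farthest from the median. With levels taken as residuals on %rRNA and %intergenic r was 0.19. In bLRs the same relation had r = 0.56 (unadjusted permutation p = 0.11, adjusted 0.452).

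Adm in bHRs had r = 0.69 with the percent of time in the open arms (rho = 0.56, unadjusted permutation p = 0.04, adjusted 0.452), 0.37 in males, 0.87 in females and 0.37 without the 2 farthest rats. Calcb had its smallest p with time immobile in bLRs (r = 0.44, rho = 0.29, unadjusted permutation p = 0.143, adjusted 0.484), with 0.28 in males, 0.80 in females and 0.54 without the 2 farthest rats. The relations of Adm and Calcb were 0.24 and 0.077 with levels scaled by library size alone.

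**Figure D4:**
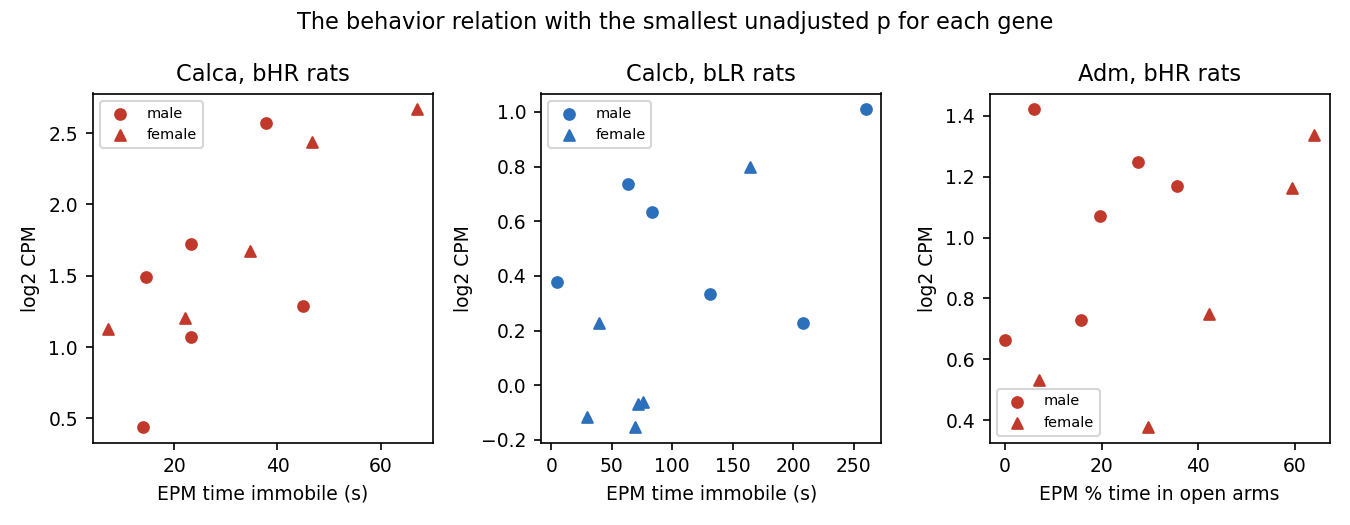
Log2 CPM against the behavior whose relation had the smallest unadjusted p for each gene: Calca and EPM time immobile in 11 bHRs, Calcb and EPM time immobile in 12 bLRs, and Adm and EPM percent time in open arms in 11 bHRs. Circles are males and triangles females, and r after subtracting sex means was 0.74, 0.44 and 0.69, none of which passed correction.

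Of 49 listed genes of the pathway, 9 could be matched to the table and all 9 passed the filter on low values: 4 that process or break down peptides, 4 that act after the receptor (adenylyl cyclase, phosphodiesterases, an arrestin) and 1 hypoxia-induced gene. Receptors and the related peptides Adm2 and Iapp were not analysed here. Which list genes could be matched depended on the names given with the study's results by lineage and by sex. By lineage 0 of the 9 passed FDR < 0.10 (edgeR, 1 at an unadjusted p under 0.05, where 9.96% of all genes stood), as in limma-voom, with Log2FCs from -0.39 to 0.18 and a median of -0.014, against -0.0035 over all genes tested. By sex 0 of the 9 passed, against 0.354% of all genes, and 0 stood at an unadjusted p under 0.05 in edgeR (1 in limma-voom), against 11.2% of all genes in edgeR, with Log2FCs from -0.025 to 0.26 and a median of 0.084, against -0.030 over all genes.

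Of the genes around the 3 members, members themselves left out, 0 passed the threshold by lineage. Within 1 Mb of the start of Calca, besides Calcb, 8 genes were tested, 3 higher and 5 lower in bLRs, with Log2FCs from -0.12 to 0.28 and a median of -0.016. The nearest tested gene on one side was Cyp2r1, a vitamin D hydroxylase 82.7 kb away (Log2FC -0.053 ± 0.16, SE). On the other side it was Calcb, and beyond it Insc, an adaptor of spindle orientation 27.7 kb from the start of Calcb (Log2FC -0.018 ± 0.11, SE). The 9 genes tested within 1 Mb of Calcb, besides Calca, were the same 8 as around Calca and 1 more, with a median of -0.014. With all 24 rats 5 of the 8 genes around Calca were higher in bLRs, and the medians turned to 0.041 around both genes, so these directions rest on which rats are used.

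Within 1 Mb of Adm 14 genes were tested, 6 higher and 8 lower in bLRs, with Log2FCs from -0.21 to 0.47 and a median of -0.016. With all 24 rats 10 were higher and 4 lower, and the median turned to 0.014. The nearest were Sbf2, a myotubularin-related protein 24.9 kb away (Log2FC -0.11 ± 0.086, SE), and Ampd3, an AMP deaminase 141 kb away on the other side (Log2FC 0.12 ± 0.15, SE). None of the neighbours within 1 Mb of any member, members themselves left out, passed FDR < 0.10 by lineage (edgeR), and 12 of 1216 tested genes of chromosome 1 did (0.987%). At an unadjusted p under 0.05 stood 1 of 8 neighbours of Calca, 2 of 9 of Calcb and 2 of 14 of Adm, against 9.96% of all genes tested. All 8 neighbours of Calca are also neighbours of Calcb, so the 1 of Calca is counted again among the 2 of Calcb. Reads were counted by strand.

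**Figure D5:**
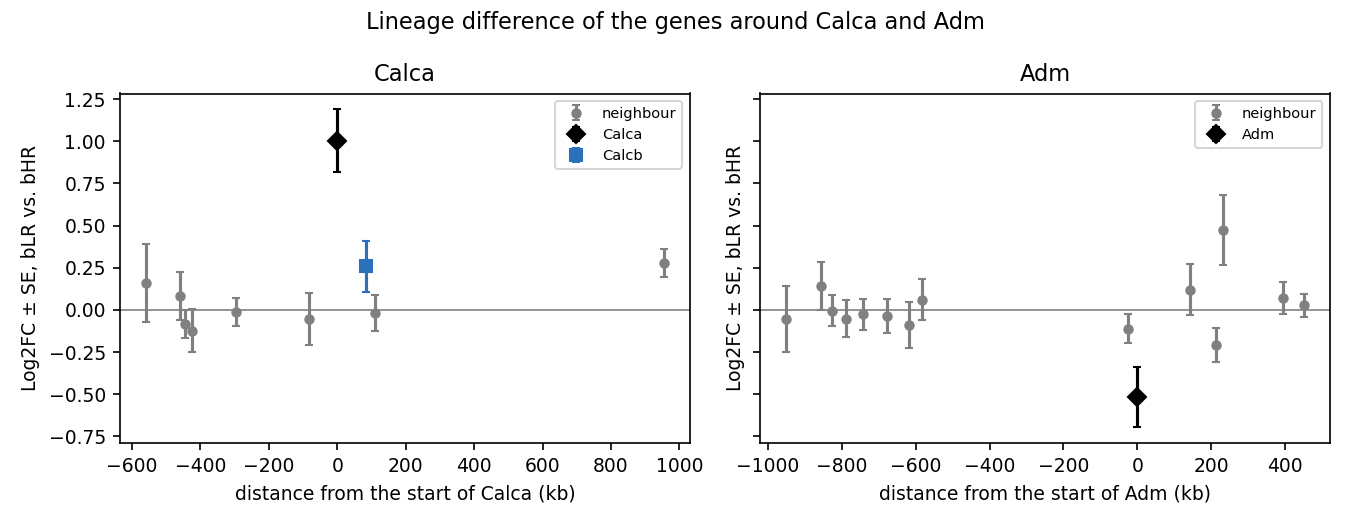
Log2FC ± SE (bLR vs. bHR) of tested genes within 1 Mb of Calca (left) and Adm (right), by distance of their starts in kb. Calca at 1.00 and Adm at -0.52 lie outside the range of their neighbours, which is -0.12 to 0.28 around Calca and -0.21 to 0.47 around Adm, and Calcb lies at 0.26. The members were chosen with this contrast known, so nothing is read from their place outside these ranges.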

How the data were processed

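The authors prepared poly-A libraries, aligned paired reads to Rnor6 with STAR 2.7.3a and assigned unique hits to Ensembl genes by strand using Subread 2.0.0. The deposited table holds the raw counts of each gene, with no normalization or filter by the authors. Groups, families, behavior and RNA metrics came from the sample labels. Symbols came from 2 supplementary tables of the study (gene names and positions only), which named 1979 of the 13838 genes tested. The members and lists were chosen with earlier results of these data known.

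Genes with at least 1 CPM in 25% of the rats were tested. CPM used TMM scaling, and log2 CPM a prior count of 2. edgeR 4.0.16 (quasi-likelihood test, R 4.3.3) was fitted across all genes tested with lineage, sex, %rRNA and %intergenic, and the interaction with %rRNA alone. Sex and interaction p-values were adjusted by Benjamini-Hochberg over all genes (FDR < 0.10), and relations over their family of 27 or 12. Relations used 100000 two-sided permutations within sex or subgroup (scipy 1.17.1, numpy 2.4.6, Python 3.11.15). Named were the members, list genes with FDR < 0.10, the 5 genes most like each member, nearest and FDR < 0.10 neighbours, and each member's behavior relation with the smallest p. Other matched cell type markers were named besides, as were genes with a symbol like Calca, picked after their values were seen. Tried besides were DESeq2 1.42.0, limma-voom from limma 3.58.1, other scalings and filters, all 24 rats, other covariates, each sex alone, family, and each rat left out. RIN and RNA concentration were added as covariates after seeing the data. The fits and permutation tests were tested on simulated data. With 16824899 to 28443049 counts per rat, 3 counts stood for 0.105 to 0.178 CPM before TMM scaling. Counting errors cover counting alone.

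The pairing of rats comes from the family codes in the labels. Deviations from subgroup means of a family's male and female had r from -0.72 to 0.78 in 11 families.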

Additional observations from a re-analysis of the deposited data

Results flagged for a closer look

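Calcb stood apart in 2 females, each highest in its subgroup with a gap to the next rat that was most of the subgroup's range. The bHR female of family H04 held 1.42 CPM (32 reads), against 0.759 to 0.874 CPM in the other 4 bHR females. The bLR female of family L07 held 1.65 CPM (41 reads), against 0.812 to 1.08 CPM in the other 5 bLR females. These are the only families of 11 in which Calcb was higher in the female than in the male, which rests in part on the same values. %intergenic was 9.38 and 8.92 in these libraries, and its part in the Calcb values was not tested. The same comparison was made in 12 sets of rats (3 genes in 4 subgroups), and chance alone is taken to mark about 5% of such sets.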

How the results depend on the processing

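Without 1 rat at a time, the Log2FC of bLRs vs. bHRs ran from 0.89 to 1.16 for Calca, 0.18 to 0.35 for Calcb and -0.58 to -0.44 for Adm. That of females vs. males ran from 0.42 to 0.64, -0.52 to -0.34 and -0.33 to -0.17, and none of these fits brought a member to FDR < 0.10. The interaction term ran from -0.44 to 0.092, -0.40 to 0.035 and -0.34 to 0.044, with signs that turned without the bLR males of families L06 or L09 (Calca), the bHR female of family H04 (Calcb) and the bLR male of family L09 (Adm). It also turned with %intergenic added, to 0.17 for Calca and 0.010 for Adm. The relations of Calca, Calcb and Adm to behavior named above ran from 0.66 to 0.83, 0.20 to 0.65 and 0.59 to 0.87 with 1 rat of the line left out. Of the relations to RNA metrics, those of Calcb turned to 0.017 for %intergenic and -0.40 for RIN with all 24 rats, and to -0.26 for RIN and 0.38 for RNA concentration with library size alone, where those of Adm turned to -0.022 for RIN and 0.19 for RNA concentration. The cause was not tested. In the other alternatives the lineage Log2FCs kept their sign (0.65 to 1.15, 0.089 to 0.27 and -0.70 to -0.50), as did the sex Log2FCs, all at FDR of 0.186 or more. DESeq2 gave no FDR for Calcb by sex. The paired fit, with family as a replicate block, gave sex differences of 0.63, -0.48 and -0.25 and changed no call of a member. With family as a random effect (also a replicate block) the lineage Log2FCs were 1.03, 0.26 and -0.52. Depth limits Calcb and Adm, whose counting error was 15.1 to 20.4% per rat at median reads.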

Other observations

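The bHR female of family H05, left out by the study for its RIN of 6.3, held 2.93 CPM of Calca, 1.66 CPM of Calcb and 1.18 CPM of Adm when all 24 libraries were scaled together. Its library had 3.52% rRNA and 14.0% intergenic bases, the latter above the highest value of the 23 rats used, 13.5%.

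The number of fecal boli on the EPM was 0 in every bHR used and 0 to 6 in bLRs. In bLRs its r with Calca was 0.086, with Calcb 0.21 and with Adm 0.11, and none passed correction (unadjusted permutation p from 0.531 to 0.791).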
